A study of Rattus norvegicus with 24 samples.

Results

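Calca, Calcb, Chga, Chgb, Scg2, Scg3, Pcsk2, Scg5, Pcsk1n and Uchl1 are genes of thyroid C cells and of the secretory granules of neuroendocrine cells. They were taken as every probe set (the short probes that together read 1 transcript) whose platform annotation holds 1 of these symbols and no other, which found all 10 among 14217 genes named that way. The 10 genes have 12 probe sets, 3 of them for Calca. Each gene is represented by its brightest probe set, and the other probe sets of Calca are given for diet with perchlorate at day 14. The 10 representatives all passed the filter on dim signal, which rests on the mean over all 24 arrays and kept 18625 of 31042 probe sets.

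The samples were thyroids of adult male rats of the Sprague-Dawley strain, and their RNA was read on 24 Affymetrix arrays in 8 groups of 3. At each time point, day 1 and day 14, the groups were an iodine-deficient diet with perchlorate, the deficient diet alone, perchlorate alone, and controls on normal food and water. These days are not to be read as the length of time on the deficient diet. All rats were housed for 2 months plus the 1 or 14 days, and perchlorate, an anion that competes with iodide for uptake into follicular cells, was given as potassium perchlorate in the drinking water, 95 mg per liter. The labels do not say that the samples of a group came from separate animals, so a p-value reflects just the variation among these arrays, and part of that variation may be technical.

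The calcitonin-producing C cells lie between and within the follicles, are few beside the follicular cells, and store their peptides in dense-core granules until raised blood calcium, sensed by the calcium-sensing receptor, triggers release. Granins such as chromogranins and secretogranins help form the granules, and prohormone convertases cut the stored precursors into active peptides. Several of these genes are also expressed in neurons and in other endocrine cells, among them those of the parathyroid glands, which in the rat lie against or within the thyroid. In RNA from a whole gland, fewer cells of a type and less RNA per cell cannot be told apart.

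Values are log2(intensity + 16) after quantile normalization, and a fold change is a difference of group means on that scale. Perchlorate day 1 replicate 18 stood apart from the other arrays over all genes, with a median absolute deviation of 0.675, and control day 1 replicate 22 came next at 0.287, while the other 22 arrays ran from 0.130 to 0.211. Among the 10 genes another array stood apart, perchlorate day 1 replicate 15. It held the highest of all 24 values for 8 of the 10 (Calcb, Chgb, Scg2, Scg3, Pcsk2, Scg5, Pcsk1n and Uchl1), and the median deviation of the 10 genes on it was 1.79, against values from -1.04 to 0.89 on the other arrays. The summed linear level of 9 lymphocyte genes was 9240 on that array and 4117 on replicate 18, against 648 on replicate 16 of the same group and 651 to 966 in day 1 controls. On diet with perchlorate day 14 replicate 29 it was 4090, against 912 and 800 on the other arrays of that group and 546 to 615 in day 14 controls. The summed level of 12 adipocyte genes was highest, at 36279, on control day 1 replicate 22. The summed level of 14 skeletal muscle genes was highest, at 44531, on diet with perchlorate day 1 replicate 2. The other arrays of that group had 9087 and 7200. On perchlorate day 14 replicate 42 it was 25751, against 4534 and 6558 in the rest of that group. Replicate 42 held the lowest value of its group for all 10 genes. The muscle sum was higher still on control day 1 replicate 21 (31925), diet day 1 replicate 12 (27059) and diet day 14 replicate 32 (26765). On these, 10, 9 and 0 of the 10 genes lay above the median of the other arrays. The part of such tissue in the members' values was not tested. Counts of calls are given with and without perchlorate day 1 replicates 15 and 18 and control day 1 replicate 22 where they differed.

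The promoters of 3 of the genes are shown because a regulatory sequence known from neuroendocrine genes, the cAMP response element that CREB proteins bind, could be searched for in genes that moved in the same direction. RefSeq promoters of build GRCr8, from 250 bases before to 50 bases after a start site, were read for 8 of the 10 members, all but Calcb and Chga. This site need not be the outer end of the gene, and the Scg2 window lies wholly within the RefSeq gene. The full element (TGACGTCA) and its core (TGACG) were searched on both strands, and each full element holds the core on either strand. Capitals mark the matches, read on the gene's own strand, so that CGTCA is a core on the opposite strand.
Scg2, chr9:88256817-88257116, minus strand: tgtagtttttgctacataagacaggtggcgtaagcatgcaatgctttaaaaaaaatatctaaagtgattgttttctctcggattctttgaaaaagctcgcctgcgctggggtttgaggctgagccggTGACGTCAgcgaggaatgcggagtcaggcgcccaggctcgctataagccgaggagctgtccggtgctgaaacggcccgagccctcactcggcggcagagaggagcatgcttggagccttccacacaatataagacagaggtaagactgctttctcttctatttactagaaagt
Calca, chr1:178317480-178317779, minus strand: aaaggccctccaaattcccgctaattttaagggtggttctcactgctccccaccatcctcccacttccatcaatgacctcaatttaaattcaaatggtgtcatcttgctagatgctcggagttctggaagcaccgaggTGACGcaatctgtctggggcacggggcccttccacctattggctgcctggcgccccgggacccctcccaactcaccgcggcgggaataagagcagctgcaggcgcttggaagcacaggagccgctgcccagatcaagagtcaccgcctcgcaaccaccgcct
Pcsk2, chr3:151333688-151333987, plus strand: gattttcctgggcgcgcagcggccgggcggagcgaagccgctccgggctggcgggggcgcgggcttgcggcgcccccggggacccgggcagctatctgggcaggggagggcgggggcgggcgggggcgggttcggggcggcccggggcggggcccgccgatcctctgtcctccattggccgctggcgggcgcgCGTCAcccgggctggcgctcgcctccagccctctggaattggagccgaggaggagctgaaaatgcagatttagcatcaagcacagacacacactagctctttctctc
The full element was in 1 of the 8 promoters, that of Scg2, and in 1.83% of all 33469 promoters of the table. A core was in 5 of the 8, those of Calca (at -112 from the start site of its window), Scg2, Scg3 (at -69), Scg5 and Pcsk2 (at -57), and in 21.2% of all promoters. The promoters of Chgb, Pcsk1n and Uchl1 held neither in this window. A match is only a match of letters.

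The combination of deficient diet and perchlorate at day 14 gave the lowest of the 8 group means for each of the 10 genes, read by its representative probe set. The dimmest of the Calca probe sets had its lowest mean under diet with perchlorate at day 1, at 10.84 against 11.51 at day 14. Against the day 14 controls, 7 of the 10 fell in limma with Benjamini-Hochberg adjustment (adjusted p under 0.05), and 8.85% of all probe sets tested were called in this comparison, 2.75% of them as lower. The 7 were Calcb, Scg2, Scg3, Pcsk2, Scg5, Pcsk1n and Uchl1, and their log2 fold changes ran from -2.15 to -1.17. All 10 fold changes were below 0, as were 58.3% of those of all probe sets, and the arrays did not overlap for 9 of the 10, which 20.7% of all probe sets also showed as lower. The median fold change of the 10 was -1.19, against -0.06 over all probe sets.

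Among the calcitonin peptides, Calcb, which encodes the beta form of calcitonin gene-related peptide, had values of 9.13, 9.90 and 9.08 under diet with perchlorate, against 11.43, 11.44 and 11.03 in controls. The highest treated array lay more than 1 log2 unit below the lowest control. The difference was -1.93 ± 0.44 (SE), or 0.263 of the control level, with an adjusted p of 0.00763 in limma, and the call held under all 15 alternative settings. Calca encodes calcitonin and, by alternative splicing, the alpha form of the related peptide. Its brightest probe set read 13.10, 13.65 and 13.24 under diet with perchlorate, against 13.69, 13.78 and 13.45 in controls. Replicate 29 of the treated group lay above the lowest control, and the difference of -0.31 (95% interval -0.62 to -0.01) had an adjusted p of 0.218.

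The 3 Calca probe sets did not give the same answer. The brightest one spanned 13.10 to 13.78 over all 24 arrays, at percentiles 99.4 to 99.9 of the values of each array. The next read 10.92, 12.68 and 11.27 under diet with perchlorate, against 13.71, 13.31 and 13.50 in controls, with no overlap. This probe set fell by 1.89 on the log2 scale with an adjusted p of 0.0180, where the limma interval ran from -2.91 to -0.86. The dimmest read 11.25, 12.17 and 11.12 in treated thyroids, against 12.76, 12.86 and 12.41 in controls, also without overlap, but its difference of -1.17 had an adjusted p of 0.230. Whether the narrow range of the brightest probe set reflects signal near the top of the scale was not tested, so the fall of Calca depends on the probe set.

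**Figure D1:**
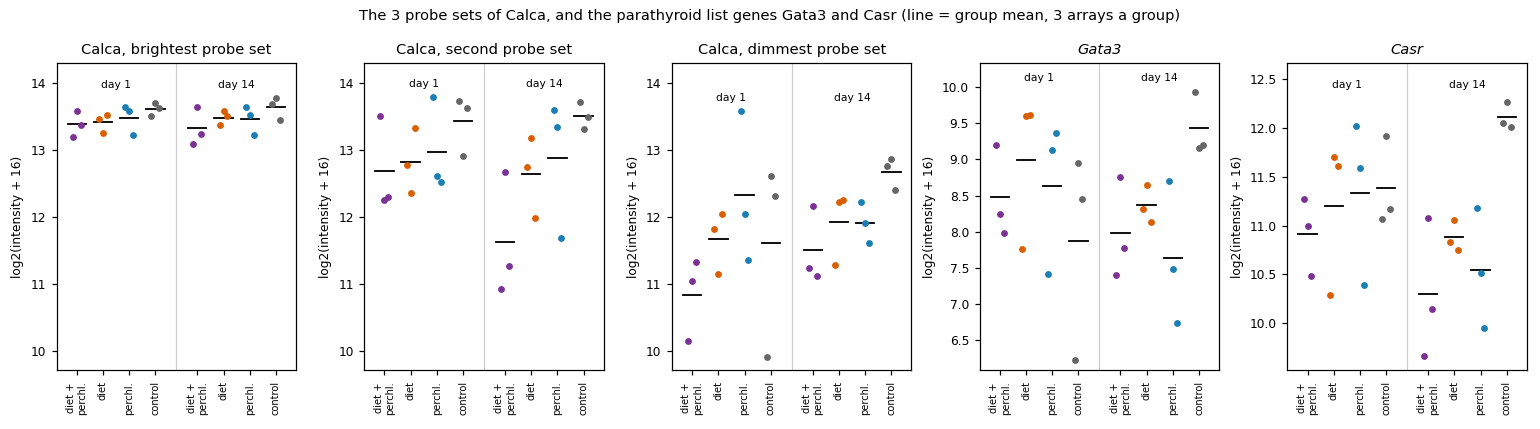
Each point is 1 array, by group, on a log2(intensity + 16) axis, with a line at each group mean, for the 3 probe sets of Calca on 1 shared scale and for Gata3 and Casr, which are on the parathyroid list, on scales of their own. The brightest Calca probe set stayed between 13.10 and 13.78, while the other probe sets of Calca were lower under diet with perchlorate at day 14 than in day 14 controls, without overlap.

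Among the granins, Scg2 and Scg3 fell. Scg2, secretogranin II, the precursor of secretoneurin, had values of 7.56, 7.87 and 8.23 under diet with perchlorate at day 14, against 9.56, 10.44 and 10.10 in controls. No array overlapped, and the difference of -2.15 ± 0.55 (SE; adjusted p 0.0167) was the largest of the 10. Scg3, secretogranin III, a granule membrane protein that binds chromogranin A, had 9.9996, 11.16 and 10.43 in treated thyroids, against 12.17, 12.19 and 11.59 in controls. It fell by 1.45 (adjusted p 0.0255), again without overlap.

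The chromogranins did not pass the test. Chgb, chromogranin B, read 10.53, 11.18 and 10.53 under diet with perchlorate, against 11.79, 12.35 and 11.62 in controls, a difference of -1.18 (95% interval -2.33 to -0.02, adjusted p 0.222). Its groups did not overlap, but the spread that limma took over all 8 groups includes perchlorate day 1, where Chgb ran from 9.41 to 13.40. With perchlorate day 1 replicates 15 and 18 and control day 1 replicate 22 left out, Chgb was called at an adjusted p of 0.0038, and over its 15 alternative settings the adjusted p ran from 0.0039 to 0.457. Chga, chromogranin A, a granule protein of many endocrine cells, read 12.35, 13.23 and 12.42 in treated thyroids, against 13.56, 13.53 and 13.56 in controls. The highest treated array lay below the lowest control, and the difference of -0.89 (95% interval -1.80 to 0.03) had an adjusted p of 0.246. These Chga controls lay at percentiles 99.73 to 99.76 of their arrays, and whether their signal was near the top of the scale was not tested.

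The genes of prohormone processing also fell. Pcsk2, prohormone convertase 2, read 8.67, 9.94 and 8.56 under diet with perchlorate, against 10.79, 11.14 and 10.59 in controls, a fall of 1.78 on the log2 scale (adjusted p 0.0130). Its chaperone Scg5, known as 7B2, read 10.60, 11.49 and 10.97 in treated thyroids, against 12.34, 12.33 and 11.90 in controls, and fell by 1.17 (adjusted p 0.0157). Pcsk1n encodes proSAAS, an inhibitor of the related convertase 1. Its values were 7.63, 8.21 and 7.63 under treatment, against 8.87, 9.56 and 8.62 in controls, and it fell by 1.19 (adjusted p 0.0180). Uchl1, a ubiquitin hydrolase abundant in neurons and neuroendocrine cells, read 7.83, 8.90 and 7.96, against 9.64, 9.57 and 9.06 in controls, and fell by 1.19 (adjusted p 0.0201). In each of these genes replicate 29, the treated array with the high lymphocyte level, was the highest treated array and lay closest to the controls. That array also had the highest summed level of 4 parathyroid genes in its group, 18748 against 13170 and 13304. Of the perchlorate day 1 arrays high in lymphocyte genes, replicate 15 had the highest values of these genes. Replicate 18 had the lowest of its group for Pcsk2, Scg5 and Uchl1, but not for Pcsk1n.

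**Figure D2:**
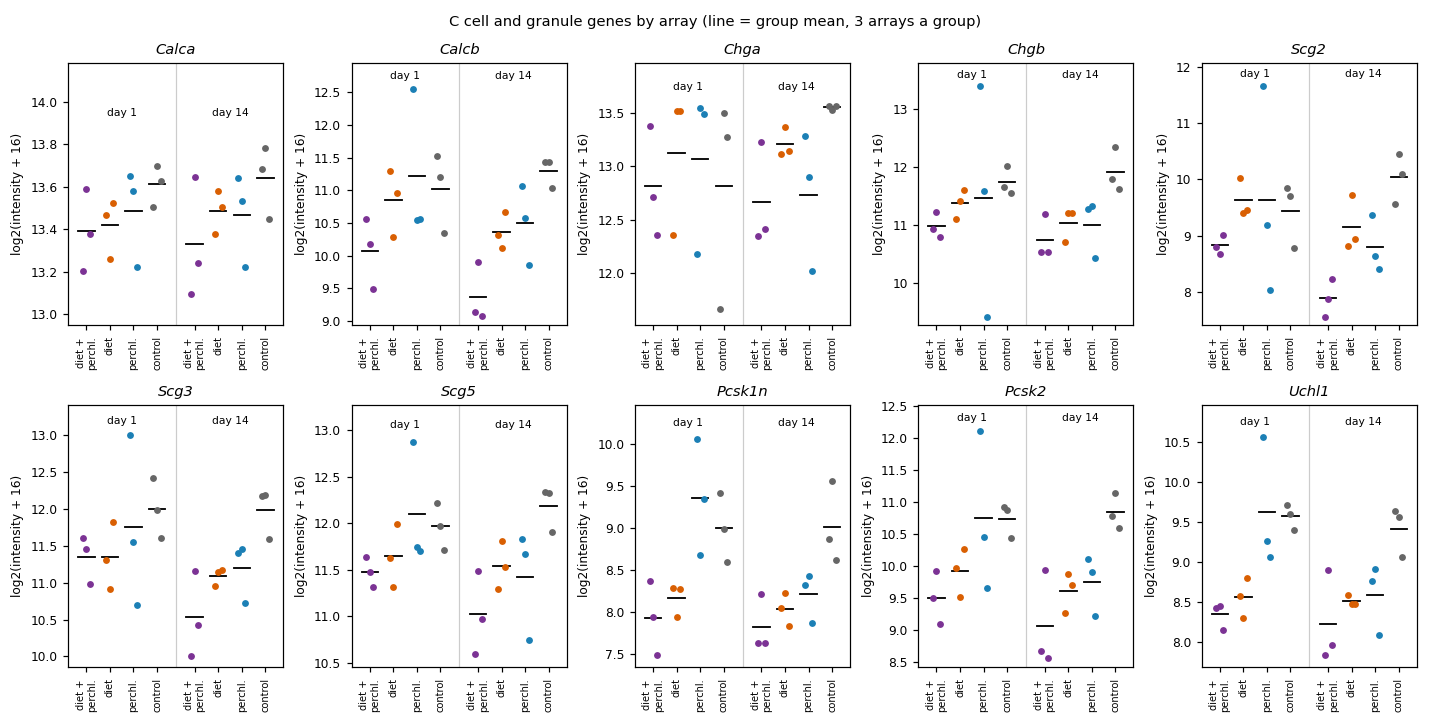
Points are single arrays on a log2(intensity + 16) axis for each of the 10 genes, grouped by treatment and day, with a line at each mean of 3 arrays. In all 10 panels the mean of diet with perchlorate at day 14 is the lowest, and perchlorate day 1 replicate 15 is the highest point in 8 of them.

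The count of 7 depended on single arrays. It was 1, Calcb alone, without diet with perchlorate replicate 27 or without control replicate 44. It was 2 without treated replicate 30, 4 without control replicate 43 and 7 without treated replicate 29, and it ran from 5 to 9 over the settings that kept all arrays of the comparison. Without the 3 day 1 arrays that stood apart it was 8.

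At day 14 each treatment alone gave differences in the same direction, none of which passed the test. Under the deficient diet alone all 10 genes lay below control, as did 54% of all probe sets, with a median of -0.89 against -0.02 over all probe sets. In limma 0 of the 10 were called, where 0.22% of probe sets were, and 6 of the 10 were lower at an unadjusted p under 0.05, where 3.82% of probe sets were. Under perchlorate alone all 10 also lay below control, as did 57.2% of all probe sets, with a median of -0.81 against -0.04 over all probe sets. In that comparison 0 of the 10 were called, where 3.57% of all probe sets were, and 5 were lower at an unadjusted p under 0.05, where 5.84% were. These comparisons share their 3 control arrays with each other and with the combined one, so the common direction is not 3 separate observations.

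Pcsk2 had values of 9.26, 9.87 and 9.71 under the diet and 10.12, 9.91 and 9.21 under perchlorate, against 10.79, 11.14 and 10.59 in controls. Both sets lay wholly below the controls, with differences of -1.23 (adjusted p 0.299) for the diet and -1.09 (adjusted p 0.223) for perchlorate. Scg2 read 8.81, 9.72 and 8.95 under the diet and 9.37, 8.64 and 8.41 under perchlorate, against 9.56, 10.44 and 10.10 in controls. The perchlorate arrays did not overlap the controls and the diet arrays did, with differences of -0.88 (adjusted p 0.709) for the diet and -1.23 (adjusted p 0.300) for perchlorate. In all, 8 of the 10 did not overlap control under the diet, where 11.2% of all probe sets were lower in this way, and 8 of the 10 under perchlorate, where 13.4% were.

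These counts of 0 depended on how the spread was estimated. With only the groups compared in the fit, 4 genes were called under the diet (Calcb, Scg3, Pcsk2 and Uchl1) and 2 under perchlorate (Scg2 and Pcsk2). Without the 3 day 1 arrays that stood apart, 4 were called under perchlorate (Scg2, Chgb, Pcsk2 and Uchl1).

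Added to the diet, perchlorate lowered no gene of the 10 past the test at day 14 (0.209% of probe sets called), and 2 of the 10 were lower at an unadjusted p under 0.05 (3.5% of probe sets). All 10 differences were below 0 (54.6% of probe sets), with a median of -0.53. Scg2 (-1.27, adjusted p 0.547) and Calcb (-0.99, adjusted p 0.577) did not overlap between diet with perchlorate and diet alone, which 13% of probe sets also showed in that direction. The diet added to perchlorate at day 14 also gave 10 differences below 0 (53.1% of probe sets) and no call (0.00537% of probe sets called). Calcb (-1.13) was the one lower gene at an unadjusted p under 0.05 (1.31% of probe sets), and Scg2 the one without overlap (7.06%). The interaction, which asks whether the combination differs from the sum of the separate effects, called 0 of the 10 at day 14 (0.0161% of probe sets called) and 0 at day 1 (0.0107%), with 0 of the 10 at an unadjusted p under 0.05 on either day.

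**Figure D3:**
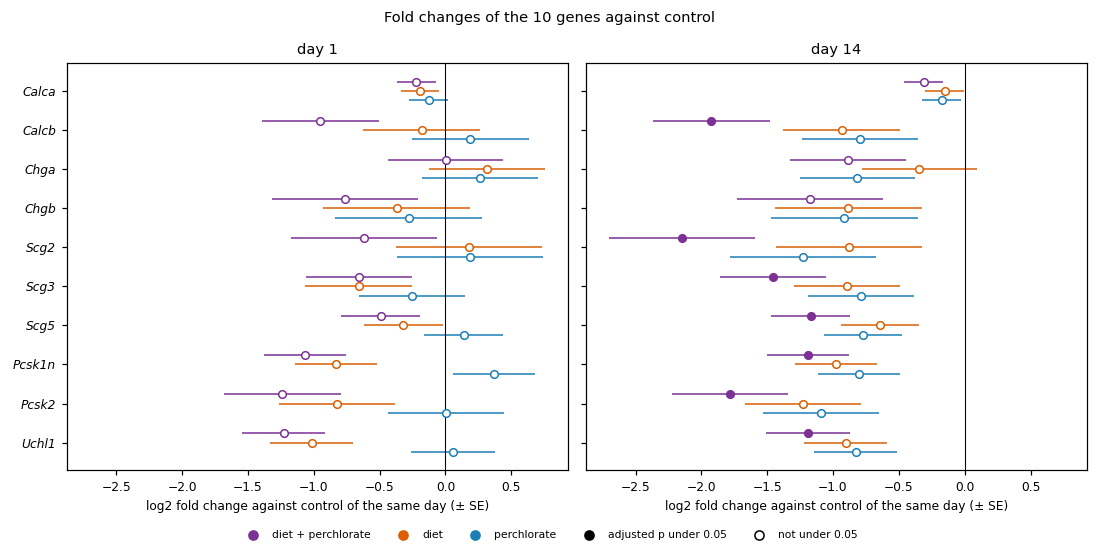
Log2 fold change against the control of the same day (horizontal axis, bars are the SE from limma) for each of the 10 genes under diet with perchlorate, diet and perchlorate, with day 1 and day 14 in separate panels. Filled points, an adjusted p under 0.05, are found at day 14 under diet with perchlorate in 7 genes, and no point of day 1 is filled.

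At day 1 none of the 10 was called against control under any treatment. Under diet with perchlorate, 9 of the 10 lay below control, the median was -0.71 against -0.01 over all probe sets, and 0 were called, where 0.601% of probe sets were. At an unadjusted p under 0.05, 4 were lower, where 5% of probe sets were. The groups did not overlap for 6 genes (Chgb, Scg3, Pcsk2, Scg5, Pcsk1n and Uchl1), all lower, against 9.76% of probe sets. Uchl1 read 8.43, 8.45 and 8.16 under diet with perchlorate, against 9.72, 9.60 and 9.41 in controls, a difference of -1.23 with an adjusted p of 0.0867. Every treated array of Uchl1 lay below every control. Chga had a difference of 0.00 (95% interval -0.91 to 0.91), with control replicate 22 at 11.66 and the other controls at 13.50 and 13.27. Over 15 alternative settings the Chga difference ran from -0.57 to 0.34.

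Under the diet alone at day 1, 8 of the 10 lay below control with a median of -0.35, and 0 were called, where 0.0537% of probe sets were. At an unadjusted p under 0.05, 2 were lower, where 2.68% of probe sets were. Uchl1 (-1.02, adjusted p 0.513), Pcsk1n (-0.83, adjusted p 0.649) and Pcsk2 (-0.82, adjusted p 0.891) did not overlap the controls, which 6.54% of probe sets also showed in that direction. Under perchlorate alone at day 1, limma called 0% of the 18625 probe sets, although 1888 of them had an unadjusted p below 0.05, and 0 of the 10 reached that level. The 3 perchlorate arrays were far apart: Scg2 read 11.67, 9.19 and 8.04, against 9.85, 9.70 and 8.79 in controls, and Chgb read 13.40, 11.59 and 9.41, against 11.67, 12.03 and 11.55 in controls. For both genes the perchlorate arrays lay on either side of the controls.

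The diet effect within perchlorate at day 1 was the one other pairwise comparison with calls, of 2 genes in 10 against 3.66% of all probe sets (1.82% lower). Pcsk1n read 8.37, 7.94 and 7.49 under diet with perchlorate, against 10.07, 8.69 and 9.34 under perchlorate alone, and fell by 1.43 (adjusted p 0.0201). Uchl1 read 8.43, 8.45 and 8.16, against 10.57, 9.26 and 9.07 under perchlorate alone, and fell by 1.29 (adjusted p 0.0328). Neither gene overlapped, nor did Scg5 (8.48% of probe sets), and all 10 differences were below 0 (47.2% of probe sets). The highest perchlorate values of Pcsk1n and Uchl1 were those of replicate 15. With the 3 arrays that stood apart left out, the differences were -0.75 (adjusted p 0.401) for Pcsk1n and -0.92 (adjusted p 0.300) for Uchl1 and 0 genes were called, and 0 were also called without diet with perchlorate replicate 3 or replicate 6. The count was 1 without diet with perchlorate replicate 2 or without perchlorate replicate 15. Added to the diet at day 1, perchlorate gave 0 calls among the 10 (0.00537% of probe sets called, 0 of the 10 with an unadjusted p under 0.05), and Scg2 was the one gene without overlap, at -0.80 (8.05% of probe sets lower in this way).

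Over all arrays, the 12 on the deficient diet against the 12 on normal food, 4 of the 10 fell in limma, against 4.78% of all probe sets called and 1.93% lower. They were Pcsk1n (-0.91 ± 0.16 SE, adjusted p 0.00227), Uchl1 (-0.89 ± 0.16, adjusted p 0.00272), Pcsk2 (-0.99 ± 0.22, adjusted p 0.0125) and Calcb (-0.85 ± 0.22, adjusted p 0.0320). Pcsk1n, Uchl1 and Pcsk2 kept their calls under all 32 alternative settings, and Calcb lost its call under 14 of them. Scg5 (-0.50, adjusted p 0.0584) and Scg3 (-0.66, adjusted p 0.0633) lay just outside the threshold. Chga differed by -0.09 (95% interval -0.55 to 0.37). All 10 differences were below 0 (49.6% of probe sets), with a median of -0.63, against 0.00 over all probe sets.

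This average runs over both days and both kinds of water, and its parts for Pcsk1n were -0.83 and -0.98 for the diet against control at days 1 and 14, and -1.43 and -0.38 for the diet added to perchlorate. For Uchl1 they were -1.02 and -0.91 against control and -1.29 and -0.36 added to perchlorate. For both genes the diet added to perchlorate at day 14 had the smallest of the 4 differences. The change of the diet effect from day 1 to day 14 called none of the 10 (0% of probe sets called, 0 of the 10 with an unadjusted p under 0.05). The count of 4 was 8 without perchlorate day 1 replicate 18, and 5 without the 3 arrays that stood apart, when Scg3 and Chgb were called and Calcb was not.

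Perchlorate against normal water over all 24 arrays called 0 of the 10, where 3.2% of all probe sets were called, and 4 of the 10 were lower at an unadjusted p under 0.05, where 8.04% of probe sets were. All 10 differences were below 0 (56% of probe sets) with a median of -0.38, and the lowest was that of Scg2 at -0.78 (adjusted p 0.135). The count was 5 without perchlorate day 1 replicate 15, and 1 (Scg2) without the 3 arrays that stood apart. The difference in the perchlorate effect between the days, day 14 minus day 1, was below 0 for all 10 (50.4% of probe sets), with a median of -0.95. There 0 were called, where 0.553% of probe sets were, and Pcsk1n and Scg5 were lower at an unadjusted p under 0.05, where 5.32% were. The combined effect at day 14 minus that at day 1 called 0 of the 10 with 0 at an unadjusted p under 0.05 (0% of probe sets called), and its lowest value was that of Scg2 at -1.53 (95% interval -3.16 to 0.10). In untreated thyroids at day 14 against day 1, 0 of the 10 were called (0% of probe sets called, 0 of the 10 with an unadjusted p under 0.05). Only Chga, at 0.74, had groups without overlap, which 5.04% of probe sets showed as higher. Its day 1 controls read 11.66 on replicate 22, and 13.50 and 13.27 on the others, against 13.53 to 13.56 at day 14.

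The order of the group means was alike in several genes. Pcsk2 averaged 9.06 ± 0.77 (SD, n = 3 in every group) under diet with perchlorate at day 14, 9.50 ± 0.41 under the same at day 1, 9.61 ± 0.32 under the diet at day 14 and 9.75 ± 0.47 under perchlorate at day 14. It then averaged 9.92 ± 0.38 under the diet at day 1 and 10.74 ± 0.27 in day 1 controls. Perchlorate at day 1 (10.74 ± 1.25) and day 14 controls (10.84 ± 0.28) came highest. The step from the diet at day 1 up to day 1 controls was wider than either SD. At every other step neighbours differed by less than the larger of their SDs. By the smaller SD, the lowest step was also wider than 1 SD. Uchl1 ran from 8.23 ± 0.58 under diet with perchlorate at day 14 to 8.59 ± 0.44 under perchlorate at day 14 in its 5 lowest groups, and perchlorate at day 1 (9.63 ± 0.82) and the controls (9.58 ± 0.16 at day 1, 9.42 ± 0.31 at day 14) formed the 3 highest.

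Over all 24 arrays Chga varied unlike the other 9, and this rested on a few arrays. After each group's mean was subtracted, its Pearson correlations with the other 9 over the 24 arrays had a median of -0.13, while the corresponding medians of the others ran from 0.66 to 0.85. The array on which Chga was lowest, control day 1 replicate 22 at 11.66, held Uchl1 at 9.72 and Scg3 at 12.42, the highest of the day 1 controls for both. Perchlorate day 1 replicate 15 held Chga at 12.18, the lowest of its group, beside the highest values of 8 other members. Without replicates 15, 18 and 22 of day 1, the median for Chga was 0.56, that for Scg2 was lower at 0.33, and those of the other 8 ran from 0.71 to 0.85. All such correlations are descriptions of 24 arrays that share 1 normalization.

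By the same measure over 10642 genes, the genes most like Chga were Gata3 (r = 0.97), Kctd12 (0.95), Adgrg2, Sostdc1, Pcyt1b, Eya1, Gja3 and Wdfy2 (0.91), with no other member among these 8. Gata3, a transcription factor of the developing parathyroid, was still at 0.95 when control day 1 replicate 22 and perchlorate day 1 replicate 15, the arrays where Chga lay farthest from its median once group means were subtracted, were left out. The genes most like the brightest Calca probe set were Slc35g2 (0.86), Pip5k1b (0.84), Pcsk2 (0.78), Resp18 (0.75), Rasgef1a, Manba, Fgf13 and Uchl1 (0.72), so that 2 other members stood among its 8. For Pcsk2, chosen for this after its values were seen, Resp18, a protein of endocrine granules, led at 0.95, and Scg3 (0.93) and Uchl1 (0.91) were among the 8.

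Genes of the parathyroid were read in every sample, and 1 of them fell beside the members. Of the 7 genes on that list 4 were measured, and Pth, which encodes parathyroid hormone, lay between 13.42 and 14.07 on all 24 arrays. Whether the narrow range of Pth reflects signal near the top of the scale was not tested. Casr, the calcium-sensing receptor of parathyroid and C cells, read 9.67, 11.08 and 10.15 under diet with perchlorate at day 14, against 12.05, 12.26 and 12.004 in controls. It fell by 1.81 (adjusted p 0.00781) without overlap, and under perchlorate alone at day 14 it fell by 1.56 (adjusted p 0.0396). Gata3 differed by -1.46 (adjusted p 0.191), Pth by -0.38 (adjusted p 0.109) and Ptgfrn by 0.68 (adjusted p 0.0511) under diet with perchlorate at day 14. The median of the 4 was -0.92, and 3 of them lay below control, where 58.3% of all probe sets did. The summed linear level of the 4 genes ran from 13170 to 18748 under diet with perchlorate at day 14, against 21764 to 22168 in controls, and the part of parathyroid tissue in the fall of the members was not tested. Under the diet over all 24 arrays none of the 4 was called, where Casr differed by -0.52 and Gata3 by 0.06.

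Other neuroendocrine genes were described by a list of 44, chosen with earlier results of these data known. Of these 38 were on the array, and 25 passed the filter on dim signal. At day 14 under diet with perchlorate 20 of the 25 lay below control, where 58.3% of all probe sets did, and the median was -0.53. In limma 3 of the 25 fell, where 2.75% of all probe sets were called lower, and 0 rose. The 3 were Resp18 (-1.54, adjusted p 0.0134), Foxa2 (-1.40, adjusted p 0.0119), a transcription factor of foregut endoderm, and Isl1 (-1.21, adjusted p 0.0240), a transcription factor of endocrine cells and neurons. Ret, the receptor whose mutations underlie medullary thyroid carcinoma in humans, read 7.98, 8.21 and 8.08, against 8.79, 9.92 and 9.29 in controls, a difference of -1.24 without overlap and with an adjusted p of 0.111. Ret did not lie below control throughout, with differences of 0.42 (adjusted p 0.906) under the diet and -0.69 (adjusted p 0.597) under perchlorate at day 14, 0.00 under diet with perchlorate at day 1, and -0.05 for the diet over all 24 arrays. Under the diet over all 24 arrays 7 of the 25 fell, where 1.93% of all probe sets were called lower, and 22 of the 25 lay below 0, as did 49.6% of all probe sets, with a median of -0.36. The 6 with the smallest adjusted p were Foxa2, Stx1a, Rab3b, Eno2, Resp18 and Ptprn, of which Foxa2 differed most (-0.81, adjusted p 0.00896). Stx1a encodes a protein of vesicle release, and Eno2 is the neuronal enolase used as a neuroendocrine marker.

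**Figure D4:**
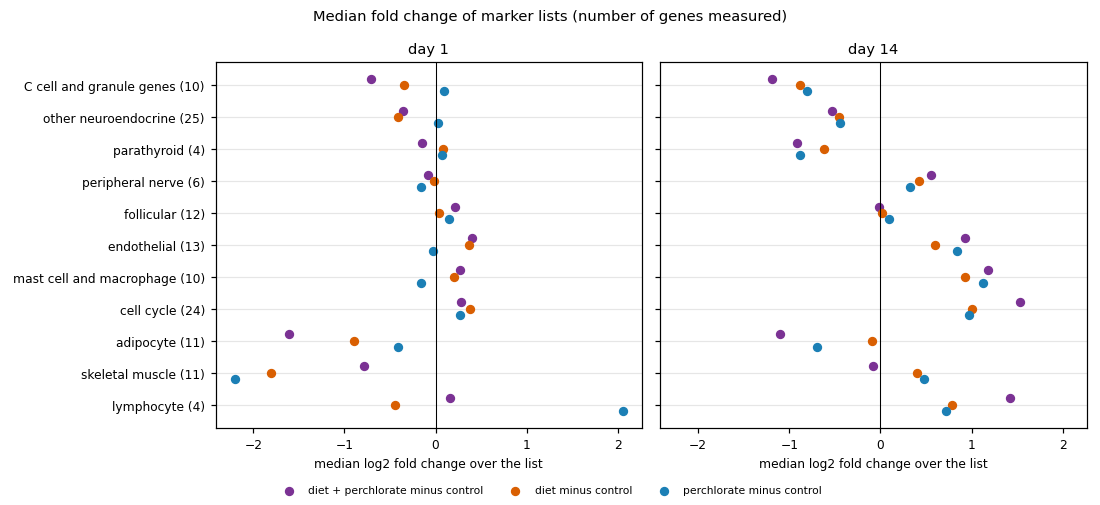
Each point is the median log2 fold change over the genes of a list that passed the filter on dim signal (number in brackets). Changes are against control of the same day, for diet with perchlorate, diet and perchlorate, in 1 panel per day. At day 14 the medians of the C cell and granule genes (-1.19, -0.89 and -0.81) lie below 0 under all treatments. So do those of the parathyroid list (-0.92, -0.62 and -0.88) and of the other neuroendocrine list (-0.53, -0.46 and -0.44). Those of the adipocyte list are -1.10, -0.09 and -0.70. The medians of the endothelial, lymphocyte, mast cell and macrophage, and cell cycle lists lie above 0.

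For the other cells of the gland, the listed markers that passed the filter on dim signal gave the following. The comparison was diet with perchlorate at day 14 against control, where 6.1% of all probe sets were called higher and 2.75% lower. There 4036 of 18625 probe sets had an unadjusted p under 0.05 in limma in either direction, and 58.3% of fold changes were below 0. Of 12 follicular genes 3 rose (Slc5a5, the iodide symporter, by 1.70, Cdh16 by 1.24 and Fxyd2 by 1.05), 1 fell (Foxe1 by 0.51), the median was -0.02, and Tg, thyroglobulin, differed by 0.18 (adjusted p 0.317). Of 13 endothelial genes 9 rose, with a median of 0.93, and of 24 cell cycle genes 19 rose, with a median of 1.53. Of 10 mast cell and macrophage genes 6 rose, with a median of 1.18. Of 11 adipocyte genes 10 lay below control with a median of -1.10, near that of the members, and in limma 0 were called, while 4 were lower at an unadjusted p under 0.05. The summed linear level of the 12 adipocyte genes on the array was 2840 to 4848 under diet with perchlorate, against 5738 to 14499 in controls, without overlap. Under the diet over all 24 arrays all 11 adipocyte genes lay below 0, with a median of -0.76, 0 called in limma and 5 lower at an unadjusted p under 0.05. In that comparison 3827 of 18625 probe sets had an unadjusted p under 0.05 in either direction, and 49.6% of fold changes were below 0. The 4 lymphocyte genes that passed the filter, of 9 on the array, lay above control at day 14 under diet with perchlorate, with a median of 1.42. In limma 0 of them were called, with 0 at an unadjusted p under 0.05. Of 11 skeletal muscle genes 6 lay below control, the median was -0.08, 0 were called and 1 was higher at an unadjusted p under 0.05. Of 6 peripheral nerve genes Pmp22 rose by 1.07 and Mbp fell by 0.84, and the summed level of the 12 nerve genes on the array was 4059 to 5374, against 2793 to 3275 in controls. The summed linear level of the 10 members was 19455 to 32684 under diet with perchlorate, against 38864 to 48732 in controls, without overlap, and the sum of the 13 follicular genes on the array was 59645 to 61289, against 54012 to 55195 in controls. The part of a change in the make-up of the gland, adipose, lymphoid and muscle tissue included, in the members' fall was not tested.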

How the data were processed

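Thyroid RNA was measured on 24 arrays in 8 groups of 3, with groups and replicate numbers taken from the sample titles. Per the submitters' processing notes the deposited intensity of each probe set was summarised with GCOS, whose version, settings and scaling target are not given in the sources used here. Probe-level values and detection calls did not enter, so signal over background is unknown, and precision is limited by the number of arrays. From the deposited intensity, log2 values were computed here as log2(intensity + 16). Array medians ran from 6.63 to 7.19 on that scale, a span of 0.56, and arrays were quantile normalized. After removal of 57 controls, probe sets at or above the 40th percentile of mean signal were tested with limma 3.58.1 (R 4.3.3), fitting a mean for each group and eBayes with a trend, 2-sided, and Benjamini-Hochberg adjustment within each of 18 comparisons. The limma fit was tested on simulated arrays with known changes, drawn with independent normal noise. Normalization, the filter and arrays that stand apart were not simulated. Members, gene lists and tests were chosen with earlier results of these data known. Genes named are the 10 members, list genes called in the comparison described (at most 6 a list), all measured parathyroid genes, and the 8 genes most like Calca and Chga. Ret, Tg and the pairs with Pcsk2 were chosen after their values were seen. Platform symbols of all 12 member probe sets matched the RefSeq table of GRCr8 by gene number, and no gene coordinates are given because the array annotation names no build. Alternatives were the values as deposited, median scaling, other pseudocounts (1 and 64), no filter, the mean of a gene's probe sets, array weights, only the groups compared, and leaving out arrays.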

Additional observations from a re-analysis of the deposited data

How the results depend on the processing

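Over the 18 comparisons and 10 genes, planned and added alternatives gave 3266 values on the same side of the threshold and in the same direction, 50 that lost a call, 51 that gained one, 153 that changed sign without a call on either side, and 0 called values that changed sign. No paired analysis was possible because no replicate number occurs in 2 groups. Counts of called members under other settings, where they differed by over 1.5 times from those given, were as follows. With array quality weights, whose estimation in limma stopped before its convergence tolerance was met, they were 1 (not 0) for diet with perchlorate at day 1, 2 (not 0) for the diet at day 14, 1 (not 0) for perchlorate at day 14, 1 (not 0) for perchlorate added to the diet at day 14, 7 (not 4) for the diet and 2 (not 0) for perchlorate over all arrays. With only the groups compared in the fit they were 4 (not 0) for the diet and 2 (not 0) for perchlorate at day 14, and 0 (not 2) for the diet added to perchlorate at day 1. That last count was 1 with the values as deposited, 1 with no filter, and 4 without perchlorate day 1 replicate 18 and control day 1 replicate 22 together, where the diet over all arrays gave 7. An alternative chosen after seeing the data left out perchlorate day 1 replicates 15 and 18 and control day 1 replicate 22, and gave 1 for diet with perchlorate at day 1, 4 for perchlorate at day 14, 0 for the diet added to perchlorate at day 1 and 1 for perchlorate over all arrays. Leaving out single arrays gave 1 to 7 for diet with perchlorate at day 14, 0 to 3 for the diet added to perchlorate at day 1, 3 to 8 for the diet and 0 to 5 for perchlorate over all arrays, and 0 for every other comparison. Calls of Pcsk1n and Uchl1 at day 14 under diet with perchlorate were lost with the values as deposited (adjusted p 0.0613 and 0.0647, from ranges of 0.00131 to 0.119 and 0.00168 to 0.126). Probe sets called over all genes also moved in that comparison, to 4371 with array quality weights and 3199 with only the groups compared, against 1649. In all these settings the cause was not tested. With 3 arrays a group, and signal over background unknown, a gene without a call is not shown to be unchanged. The filter removed no member, and the values as deposited shifted the median of all probe sets by -0.22 to 0.26 over the comparisons, against which the counts with those values are to be read.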
